A study of Mus musculus with 24 samples.

Results

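Airway mucins and other genes of the airway secretory cells were read in mice with experimental peritonitis treated with β-nicotinamide mononucleotide (β-NMN) or saline. They are 10 of the 54658 gene symbols counted: the gel-forming mucins Muc5b and Muc5ac, the goblet cell genes Clca1, Tff2 and Agr2, the secretoglobins Scgb1a1, Scgb3a1 and Scgb3a2, and the BPI fold genes Bpifa1 and Bpifb1. The genes were chosen by symbol, and Muc5b, Muc5ac and Clca1 because their values were low in the lungs of β-NMN mice, so their lung values are given as a description and no test is read from them. The organs came from male C57BL/6 mice, 7 to 12 weeks old, after cecal ligation and puncture (CLP), which releases gut bacteria into the peritoneum: 3 mice received saline vehicle and 3 received β-NMN at 185 mg/kg injected intraperitoneally after surgery, and a piece of the lung and of the heart of each mouse was sequenced. The peritoneal cells came from mice of the same strain, sex and age given thioglycollate (TGC), 6 with vehicle and 6 with β-NMN at the same dose, and the lavage cells of both groups were exposed to E. coli for 6 hours in culture. Daily injections went on for at most 4 days by the labels. The methods place the organ harvest on the day after CLP, and the paper describes the organ results as following a single β-NMN administration. The TGC mice were injected daily for 3 days by the methods. No group without peritonitis is among the 24 libraries, so all values compare animals that all had CLP, or cells that were all elicited and stimulated. Number 3 appears on the labels of a second β-NMN heart as well, which is called replicate 2 here after the lung of its mouse. The organs' source labels mention thioglycollate, while CLP is in their titles, tissue labels and the study's methods.

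The airways are covered by a mucus gel that traps particles and is moved out by cilia. In the mouse, club cells line most of the intrapulmonary airways and secrete secretoglobins, and also Muc5b in the healthy animal, while goblet cells that store Muc5ac are rare until an allergic or infectious stimulus, when signals such as IL-13 through STAT6, and the transcription factors Spdef and Foxa3, turn on mucous genes. Mucins are folded in the endoplasmic reticulum with the help of the disulfide isomerase Agr2, receive O-linked sugars in the Golgi, and leave in granules through SNARE proteins. The trefoil factor Tff2 and the protease Clca1 are secreted with mucus, and Bpifa1 and Bpifb1 are host defence proteins of the nose and large airways.

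Sequence was at hand for 4 of the 10 genes, and is shown because their mean lung levels were lower with β-NMN, without overlap between the groups except for Bpifa1. Each line holds the 250 bases before the annotated start in RefSeq on GRCm38.p6, 5′ to 3′ on the plus strand, at chr12:35992675-35992924 for Agr2, chr2:154142630-154142879 for Bpifa1, chr2:154190568-154190817 for Bpifb1 and chr11:49663345-49663594 for Scgb3a1. Capitals mark matches, on either strand, to 10 motifs. The forkhead motif was searched as TGTTTAC, the core bound by Nkx2-1, the master factor of lung epithelium, as CTCAAG, and the CCAAT box by these letters. The TATA box was searched with the letters TATAAA. The cAMP response element was TGACGTCA, and the site of AP-1, a factor of stress and growth signals, was TGANTCA. The general STAT site had TTC and GAA with 3 free bases between them, and the STAT6 site the same with 4. The E-box was CACGTG, and the consensus of NF-kappaB was the last.
Agr2: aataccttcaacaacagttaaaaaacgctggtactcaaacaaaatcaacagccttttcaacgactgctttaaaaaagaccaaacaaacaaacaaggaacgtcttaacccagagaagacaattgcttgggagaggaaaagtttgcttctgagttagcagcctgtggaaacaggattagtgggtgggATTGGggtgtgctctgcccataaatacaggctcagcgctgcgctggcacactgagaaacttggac
Bpifa1: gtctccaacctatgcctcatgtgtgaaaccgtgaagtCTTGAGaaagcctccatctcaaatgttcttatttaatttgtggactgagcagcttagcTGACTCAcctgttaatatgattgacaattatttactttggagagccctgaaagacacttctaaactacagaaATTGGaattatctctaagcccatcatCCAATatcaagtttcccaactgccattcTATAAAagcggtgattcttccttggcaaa
Bpifb1: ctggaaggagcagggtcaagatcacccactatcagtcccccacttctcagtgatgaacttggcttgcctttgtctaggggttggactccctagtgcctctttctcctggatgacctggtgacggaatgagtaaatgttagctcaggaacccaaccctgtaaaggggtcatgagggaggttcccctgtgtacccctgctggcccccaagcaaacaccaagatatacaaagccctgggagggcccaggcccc
Scgb3a1: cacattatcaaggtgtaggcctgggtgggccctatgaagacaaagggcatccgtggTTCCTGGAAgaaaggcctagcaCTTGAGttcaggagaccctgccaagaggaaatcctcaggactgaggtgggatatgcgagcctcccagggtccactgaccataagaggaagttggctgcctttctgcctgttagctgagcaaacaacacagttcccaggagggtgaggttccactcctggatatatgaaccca

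No motif was found in all 4 windows. CTCAAG was found on the minus strand of Bpifa1 and of Scgb3a1, and 13.3% of the 32851 RefSeq windows of the same length held it. CCAAT was found in Agr2 and at 2 places in Bpifa1, against 33.8% of all windows, and Bpifa1 also held a TATA box 29 bases before its start (12.4% of windows) and an AP-1 match (6.75%). The STAT match TTCCTGGAA lay 194 bases before the start of Scgb3a1, where 7.02% of windows held one. The Bpifb1 window held none of the 10 motifs, and the forkhead, STAT6, cAMP response element, NF-kappaB and E-box letters were in none of the 4 windows. A match is a string of letters and was not tested as a binding site.

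Both gel-forming mucins were lower in β-NMN lungs, and the groups did not overlap. Muc5b, the mucin that makes up most of the mouse airway gel, lies on chromosome 7 (141839070 to 141873084, GENCODE M21 on GRCm38, plus strand), next to Muc5ac (141788972 to 141819231). It stood at 197, 706 and 289 CPM (read counts scaled to the TMM-normalized library size) in vehicle lungs of replicates 1, 2 and 3 and at 49.5, 65.2 and 24.0 CPM in the β-NMN lungs. The highest β-NMN lung was thus below the lowest vehicle lung, and the group means were 397 ± 271 and 46.2 ± 20.8 CPM (SD, n = 3 each). The fitted log2 fold change, β-NMN over vehicle as everywhere below, was −3.10 with a standard error of 0.61. These values rested on 654 to 6966 reads per library. Muc5ac, the mucin of induced goblet cells, was far rarer, at 4.96, 3.03 and 5.18 CPM with vehicle and 1.16, 1.74 and 0.954 CPM with β-NMN, a log2 fold change of −1.78 (SE 0.43). It was counted from as few as 19 reads in a library. In bulk tissue, fewer cells of a type and less RNA per cell cannot be told apart, which holds for each gene here.

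Clca1, a secreted protease of goblet cells (chromosome 3, 145003817 to 145032776, minus strand), had the largest fitted change of the 10 genes with all 6 lungs. It stood at 7.25, 3.03 and 32.4 CPM in vehicle lungs and at 0.975, 0.503 and 0.183 CPM in β-NMN lungs, with a log2 fold change of −4.73 (SE 1.06). The groups did not overlap, but replicate 3 of the vehicle lungs held most of the vehicle reads, 782 against 215 and 21 in the other two. Without that lung the log2 fold change was −3.25, behind that of Agr2 (−3.40). Its counts in β-NMN lungs were 16, 13 and 5 reads.

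Tff2, the trefoil peptide that binds mucins (chromosome 17, 31141049 to 31144282), was at 15.5, 40.7 and 19.1 CPM with vehicle and at 1.95, 7.46 and 1.98 CPM with β-NMN. Its log2 fold change was −2.71 (SE 0.67), and β-NMN replicate 2 stood nearest to the vehicle lungs. Agr2, which folds mucins (chromosome 12, 35992907 to 36004087), was low throughout, at 2.12, 8.52 and 1.24 CPM with vehicle and 0.305, 0.967 and 0.147 CPM with β-NMN, from 4 to 63 reads per library. Its log2 fold change was −3.00 (SE 0.99), and the lowest vehicle lung, at 1.24 CPM, was only just above the highest β-NMN lung, at 0.967 CPM.

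The 3 secretoglobins did not move together. Scgb1a1, the club cell secretory protein (chromosome 19, 9083636 to 9087958), was the most abundant of the genes and took 5.13% to 5.17% of all counts in vehicle lungs and 3.26% to 5.67% in β-NMN lungs. It was at 49426, 66286 and 48880 CPM with vehicle and at 57574, 29998 and 47344 CPM with β-NMN, so that the groups overlapped, with a log2 fold change of −0.29 (SE 0.41). Scgb3a1, made by secretory cells of the larger airways (chromosome 11, 49663610 to 49665118), was at 490, 2257 and 666 CPM with vehicle against 147, 283 and 42.4 CPM with β-NMN. These groups did not overlap, and the log2 fold change was −2.85 (SE 0.86). Scgb3a2, a secretoglobin of club cells that marks early airway epithelium, overlapped again, at 673, 2529 and 789 CPM with vehicle and 1235, 536 and 433 CPM with β-NMN (log2 fold change −0.86, SE 0.64).

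The BPI fold genes are neighbours on chromosome 2. Bpifa1 (154142880 to 154149219), an antimicrobial and surfactant protein of the upper airways, was at 250, 334 and 747 CPM with vehicle and at 22.8, 376 and 7.04 CPM with β-NMN. Replicates 1 and 3 of the β-NMN lungs were far below every vehicle lung and replicate 2 was within their range, so the fitted log2 fold change of −1.72 had a standard error of 1.32. Without β-NMN replicate 2 it was −4.90, beyond that of Clca1 (−4.68). Bpifb1 (154190818 to 154220369) had the same order among β-NMN lungs, 39.1, 131 and 10.1 CPM, but all 3 were below the vehicle values of 282, 341 and 532 CPM (log2 fold change −2.68, SE 0.86). Without β-NMN replicate 2 its log2 fold change was −3.97.

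**Figure D1:**
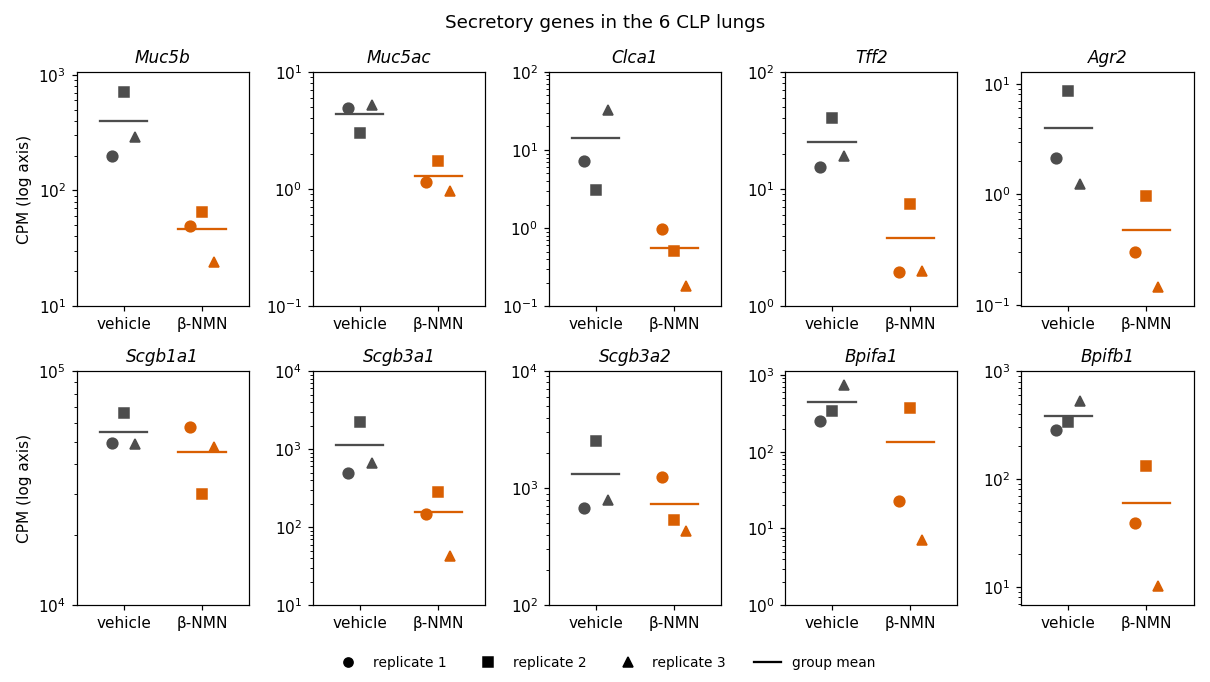
Each panel plots 1 gene in CPM on a log axis, with a point for each CLP lung (shape gives the replicate) and a line at the group mean. The groups are apart for Muc5b, Muc5ac, Clca1, Tff2, Agr2, Scgb3a1 and Bpifb1 and overlap for Scgb1a1, Scgb3a2 and Bpifa1.

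All 10 genes passed the low-count filter in lungs and all 10 had a log2 fold change below 0, where 49.9% of the 17008 genes tested did. The median of the 10 was −2.70, beside 0.00 over all genes tested. The β-NMN lungs lay below the vehicle lungs without overlap for 7 of the 10 genes, where 3.75% of all genes tested did so. Muc5b, Muc5ac and Clca1 among them were picked for low values in these lungs, so nothing about the list is read from these counts. Over all genes, edgeR's quasi-likelihood test put no gene under an adjusted p of 0.05 in lungs (0% of 17008 genes, with 301, or 1.77%, at an unadjusted p below 0.05), and the adjusted p of each of the 10 genes was 0.969. With DESeq2, 9 genes of the whole table passed, and with limma-voom and quality weights 7 passed.

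**Figure D2:**
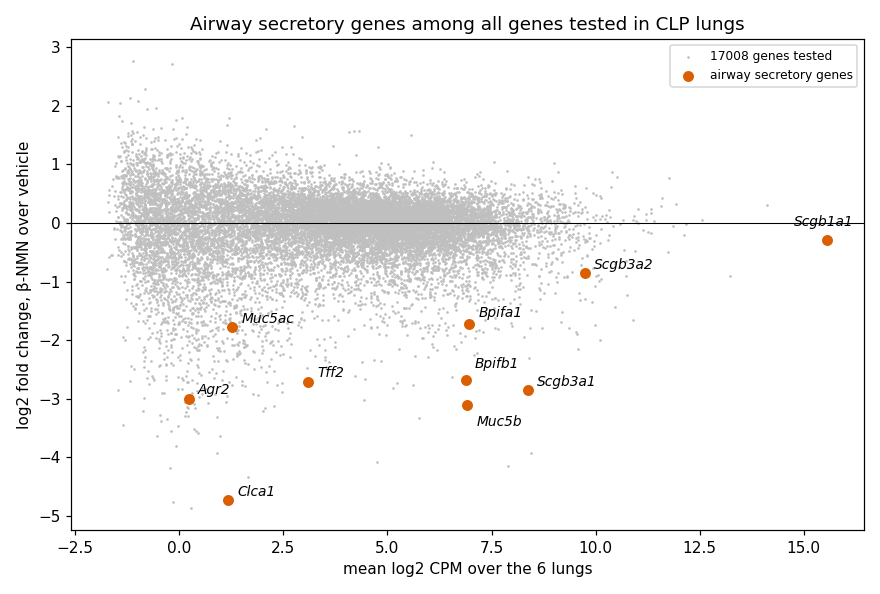
The log2 fold change of each of the 17008 genes tested in lungs (vertical axis) is plotted against its mean log2 CPM over the 6 lungs (horizontal axis), with the 10 secretory genes in orange. Clca1 is the lowest of them at −4.73, and Scgb1a1, the most abundant, lies at −0.29.

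One vehicle lung, replicate 2, stood apart from the other lungs. It had the lowest total count of all, 8915366 against 16654852 to 28356786, and its standard deviation of log2 differences from the other lungs was 1.57, against 0.45 to 0.602 for each of the others. Of the 10 genes, 6 were highest in this lung among the vehicle lungs, namely Muc5b, Tff2, Agr2, Scgb1a1, Scgb3a1 and Scgb3a2. Muc5ac and Clca1 were lowest there. Without it, the log2 fold changes were −2.40 for Muc5b, −2.17 for Tff2, −1.81 for Agr2, −1.88 for Scgb3a1 and 0.01 for Scgb3a2, and −5.26 for Clca1. The median of the 10 genes was then −1.93, and Muc5b, Muc5ac, Clca1, Tff2, Agr2, Scgb3a1 and Bpifb1 still did not overlap. With 2 vehicle lungs against 3, 10.5% of the 17513 genes tested lay lower with β-NMN without overlap.

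Among β-NMN lungs, replicate 2 was highest for 7 of the 10 genes and replicate 3 was lowest for 8. Scgb1a1, Scgb3a2 and Clca1 were instead highest in β-NMN replicate 1. Without β-NMN replicate 2, the median log2 fold change was −3.61 and 8 of the 10 genes did not overlap, Bpifa1 being the addition, where 6.21% of the 17686 genes tested were lower without overlap. The log2 fold change was then −3.65 for Tff2, −4.09 for Agr2 and −3.57 for Scgb3a1. Across all 14 alternative fits, 9 of the genes kept a log2 fold change below 0 in each, and Scgb3a2 did so in 13.

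**Figure D3:**
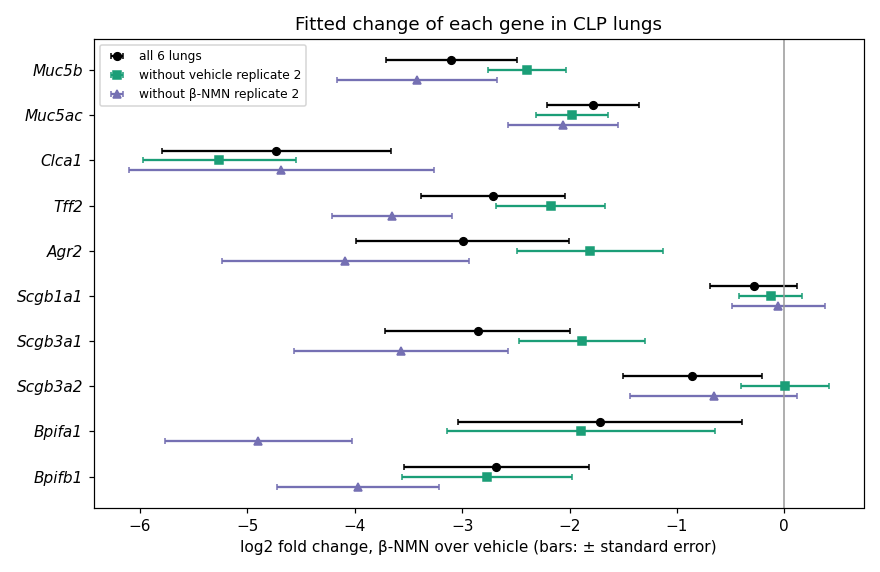
Points give the fitted log2 fold change of each gene in lungs with bars of ± 1 standard error, for all 6 lungs (black), when vehicle replicate 2 is left out (green) and when β-NMN replicate 2 is (purple). Leaving out vehicle replicate 2 brings Agr2 from −3.00 to −1.81, and leaving out β-NMN replicate 2 brings Bpifa1 from −1.72 to −4.90.

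Levels were also compared between genes per length, as CPM per kilobase of merged exons. In vehicle lungs Scgb1a1 had 115261 ± 20789 CPM per kilobase (SD, n = 3), followed by Scgb3a1 with 1902 ± 1628 and Scgb3a2 with 1512 ± 1181, whose ranges overlapped. Bpifa1 (287 ± 172) and Bpifb1 (106 ± 36.2) came next, then Tff2 (43.1 ± 23.3) and Muc5b (26.5 ± 18.1), which overlapped each other. Clca1 (3.77 ± 4.20) and Agr2 (3.07 ± 3.08) overlapped, and Muc5ac was last at 0.408 ± 0.110 CPM per kilobase. In β-NMN lungs the order differed only in that Scgb3a2 (835 ± 496) stood above Scgb3a1 (263 ± 201), without overlap, and Agr2 above Clca1, with overlap. From Scgb3a1 down to Muc5b, the neighbours in that order overlapped.

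Correlations of log2 CPM across the 6 lungs are given as a description over 6 libraries that share the treatment contrast and the library that stood apart. Muc5b and Scgb3a1 had a Pearson r of 0.975, Bpifa1 and Bpifb1 of 0.961, and Muc5ac and Clca1 of 0.926. Scgb1a1 had its highest r with Scgb3a2, 0.742, and r of −0.169 to 0.445 with the others. Scgb3a2 had r of 0.713 with Scgb3a1, 0.692 with Muc5b and 0.669 with Agr2. Of 13461 genes compared, those with the highest r to Muc5b were the mitotic kinase Aurka (0.988), Oit1 (0.977), Scgb3a1, the corepressor Tle3 (0.975) and the small GTPase Arf6 (0.968). Aurka ranged only from 2.75 to 3.61 CPM, so that a high r went with a small change. Among those nearest to Scgb1a1 were Mrps7 (0.996), Psme1 (0.992), Tekt2 (0.992) and Gm16136 (0.992).

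Of the other mucins, 5 of the 11 in the table passed the filter in lungs, 2 lower and 3 higher, with a median log2 fold change of 0.11. Muc4, a membrane mucin, was at 35.4, 13.4 and 47.6 CPM with vehicle and 17.2, 18.1 and 18.8 CPM with β-NMN (log2 fold change −0.84, SE 0.43), and Muc16 had 1.02 (SE 0.74). Of 21 other genes of the secretoglobin, BPI fold, Clca, trefoil and Agr families, 4 passed, with a median of 0.09, and Agr3, a relative of Agr2, had 0.27 (SE 0.40) and Bpifb5 0.22 (SE 0.45). None of these was called by edgeR, DESeq2 or limma-voom.

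Of 14 transcription factors and folding genes of goblet cells, 13 were tested, 10 lower and 3 higher, with a median log2 fold change of −0.30, and 4 were lower without overlap, where 3.75% of all genes tested were. Foxa3, a forkhead factor that drives goblet cell genes, was at 0.708, 4.77 and 0.497 CPM with vehicle and 0.305, 0.309 and 0.477 CPM with β-NMN (log2 fold change −2.32, SE 0.96). Its vehicle mean rested on replicate 2, and without that lung the log2 fold change was −0.71. Spdef, the main goblet cell regulator, overlapped, at 2.26, 4.33 and 3.52 CPM against 2.56, 1.78 and 1.32 CPM (−0.83, SE 0.44). Sox2, a factor of the conducting airway epithelium, had −0.59 (SE 0.26) without overlap, while Nkx2-1 had 0.12 and Stat6 0.15. The 18 mucin O-glycosylation enzymes tested of 22 had a median of −0.01 (9 higher, 9 lower), with Fut2 at −1.14 (SE 0.57) and Galnt6 at −0.43 (SE 0.23). The 13 genes of granule secretion had a median of 0.03, with 6 lower and 7 higher, and P2ry2 had −0.47 (SE 0.30). Marcks had −1.04 (SE 0.53) and, without vehicle replicate 2, −0.21.

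Of 22 cytokines, growth factors and receptors known to act on mucous cells, 17 were tested in lungs, 11 lower and 6 higher, with a median of −0.21. The lungs did not overlap for 5 lower genes and 1 higher gene (3.75% of all genes tested were lower and 4.47% higher without overlap). Il1b was at 12.4, 14.2 and 14.5 CPM with vehicle and 5.79, 5.99 and 9.57 CPM with β-NMN (log2 fold change −0.94, SE 0.30). Il4ra and Il13ra1, the chains of the IL-13 receptor, had −0.63 (SE 0.26) and −0.57 (SE 0.24), and the epithelial alarmin Il33 was higher, at 17.2, 22.4 and 29.8 CPM against 33.3, 46.3 and 31.9 CPM (0.68, SE 0.28). No gene of these lists had an adjusted p below 0.05 in lungs with edgeR, DESeq2 or limma-voom.

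Markers of the cells that a piece of lung can hold were summed per lung beside these values. The goblet cell list, which leaves out the 10 genes, summed to 17.1, 25.7 and 29.7 CPM with vehicle and 9.81, 13.7 and 9.39 CPM with β-NMN, of which Fcgbp gave most, and Fcgbp itself did not overlap (log2 fold change −0.92, SE 0.28). All 8 of its genes were detected, 4 passed the filter, and of these Alox15, Gp2 and Slc26a4 overlapped between the groups. The club cell list (10 genes, led by Cbr2) overlapped, with 10820 to 12320 CPM in vehicle and 7638 to 14160 CPM in β-NMN lungs. Ciliated cells (14 genes, led by Sec14l3) gave 2092 to 5243 and 2005 to 2724 CPM, and basal cells (8 genes, led by Aqp3) gave 3.71 to 8.99 and 2.57 to 8.08 CPM. Airway cartilage markers (8 genes, led by Col11a2) were low in all lungs, 2.77 to 5.63 and 3.87 to 5.18 CPM.

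Vehicle replicate 2 held 5549 CPM of submucosal gland markers, against 489 to 882 CPM in the other 5 lungs. This sum was led by Pigr, the transporter of mucosal antibodies. The median log2 CPM of the gland genes tested, 6.70 in this lung, was within the range of the others, 6.05 to 7.30. Its erythroid markers summed to 11870 CPM against 1999 to 4088 CPM. Hba-a1 (5714 CPM) and Hba-a2 (4669 CPM) were highest there, Hbb-bs and Hbb-bt were within the range of the others, and Alas2 was lowest (20.8 CPM). Its macrophage markers, led by Lyz2, summed to 1462 CPM against 4032 to 5517 CPM, but their median log2 CPM, 6.55, was the highest of all lungs. Among the gland markers, Pigr was lower in each β-NMN lung, at 204, 5004 and 202 CPM with vehicle and 128, 58.0 and 118 CPM with β-NMN (log2 fold change −4.15, SE 1.37). Sox9, a factor of gland and airway progenitors, also did not overlap, at 2.06, 22.1 and 2.61 CPM against 0.731, 0.851 and 0.514 CPM (−3.64, SE 1.02), while Ltf, Cldn3, Lyz1 and Kcnn4 overlapped. Without vehicle replicate 2 the log2 fold changes were −0.999 for Pigr and −1.74 for Sox9. Cardiomyocyte markers, which the muscle sleeves of mouse pulmonary veins also express, summed to 247, 443 and 251 CPM with vehicle and 138, 238 and 65.7 CPM with β-NMN, and so did not overlap. Neuroendocrine markers also did not overlap, at 12.1 to 24.9 and 7.23 to 11.9 CPM, nor did those of skeletal muscle, at 6.95 to 9.10 and 4.99 to 6.77 CPM. The macrophage sum (7 genes, led by Lyz2) was higher in every β-NMN lung, at 5059 to 5517 CPM against 1462 to 4363 CPM with vehicle. The median log2 CPM of the macrophage genes tested overlapped, at 5.75, 6.55 and 6.28 with vehicle and 5.82, 5.68 and 6.09 with β-NMN. The part of tissue sampling and of cell makeup in the values of the 10 genes was not tested.

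**Figure D4:**
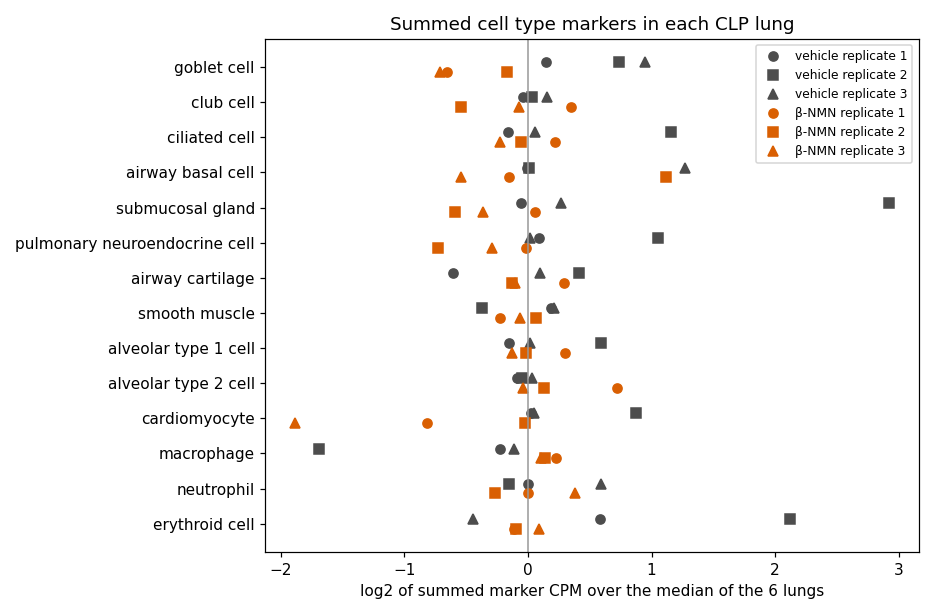
For each marker list, points give the log2 of the summed CPM in each of the 6 lungs over the median of the 6, in grey for vehicle and orange for β-NMN. The goblet cell and cardiomyocyte sums of β-NMN lungs lie below those of vehicle lungs, and the club cell sums overlap. Vehicle replicate 2 is far right for the submucosal gland sum (5549 CPM, led by Pigr) and far left for the macrophage sum (1462 CPM, led by Lyz2).

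In hearts of the same mice the genes were at or near 0, apart from Scgb3a1 at about the level of 1 CPM. Only Scgb3a1 passed the filter. Muc5ac, Tff2 and Bpifa1 had 0 reads in all 6 hearts, which allows up to 0.0205 CPM over the summed depth of the vehicle hearts and 0.0196 CPM over that of the β-NMN hearts (3 counts of each total, counting error only). Scgb3a1 was at 0.953, 1.60 and 1.16 CPM with vehicle and at 1.01, 0.462 and 0.636 CPM with β-NMN, and the groups overlapped. Its log2 fold change was −0.84 (SE 0.38, edgeR adjusted p = 0.437), and the exact two-sided permutation test gave p = 0.2, where 3 hearts against 3 cannot go below 0.1. edgeR's quasi-likelihood test called no heart gene (0% of 16245, with 1837 at an unadjusted p below 0.05), DESeq2 called 283 and limma-voom 3, and Scgb3a1 was called by none of these. Muc5b had 0 to 4 reads in each heart, Bpifb1 1 to 7, Agr2 and Scgb3a2 at most 1, and Scgb1a1 4, 10 and 5 with vehicle against 0, 11 and 50 with β-NMN (exact permutation p = 0.8).

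Clca1 was the only one of the 10 genes whose heart groups did not overlap, with higher values with β-NMN. It had 0, 1 and 0 reads with vehicle and 16, 3 and 13 with β-NMN, or 0.596, 0.0554 and 0.202 CPM in the latter. This lack of overlap held for 11.6% of the heart genes tested in this direction, and the exact two-sided permutation test gave p = 0.1, the smallest that 3 against 3 allows. The summed rate was 30.6 times that of vehicle hearts, with an exact 95% interval of 5.11 to 1250 times that covers counting error only. Several genes of the gut epithelium had their highest values in β-NMN hearts 1 and 3 as well. The intestinal mucin Muc3 was at 0.0307, 0.188 and 0 CPM with vehicle and at 3.95, 0.0370 and 1.86 CPM with β-NMN. Muc13 was at 0.169, 0.828 and 0.146 CPM against 6.18, 0.259 and 2.25 CPM, and Fcgbp at 0, 0.357 and 0 CPM against 3.31, 0.111 and 1.43 CPM. The enterocyte keratin Krt20 stood at 2.01 and 0.527 CPM in β-NMN replicates 1 and 3 and at 0.0291 to 0.0615 CPM in the other 4 hearts. Of 17 gut epithelium genes, listed after the values had been seen, 8 passed the filter, most of them through high values in these hearts, so that no count or median is read from the list, and Retnlb was at 0 in every heart. The chloride exchanger Slc26a3 was instead highest in vehicle replicate 2, at 0.658 CPM, and Lgals4 was above 33 CPM in all hearts. The part of gut RNA in the Clca1 reads was not tested.

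**Figure D5:**
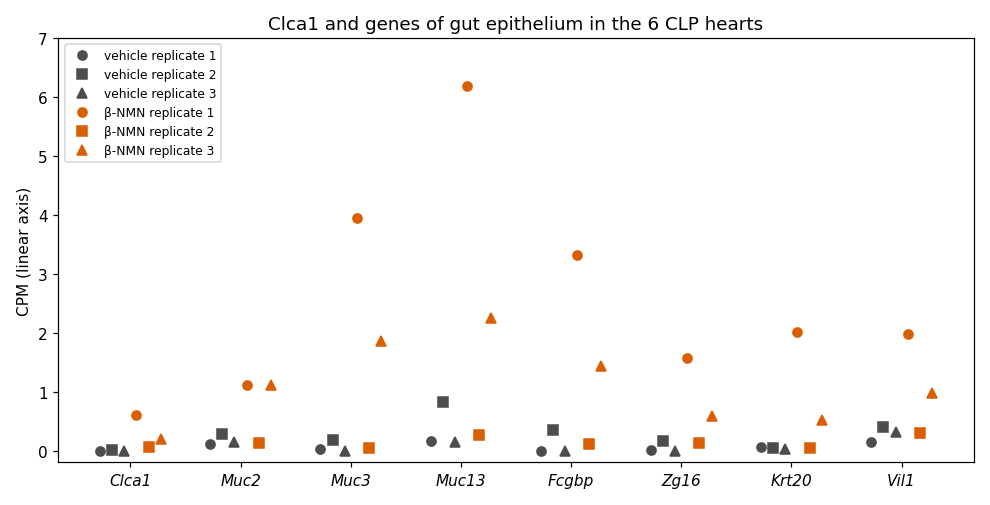
CPM (linear axis) of Clca1 and 7 genes of gut epithelium in each of the 6 hearts, vehicle in grey and β-NMN in orange. β-NMN replicates 1 and 3 stand above the others for each gene, up to 6.18 CPM for Muc13, and β-NMN replicate 2 lies within the range of the vehicle hearts except for Clca1, where its 0.0554 CPM is above them.

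Whether the β-NMN effect differed between the organs was tested as an interaction over the 12 CLP libraries, and edgeR's quasi-likelihood test called no gene (0% of 18318 genes tested, with 797 at an unadjusted p below 0.05), against 14 with DESeq2. This contrast contains the lung values by which Muc5b and Clca1 were chosen, so no test is read from it for the 10 genes. The log2 difference, lung minus heart, was −9.56 (SE 1.80) for Clca1, −2.32 (SE 1.27) for Muc5b and −1.94 (SE 0.95) for Scgb3a1. No value is given for Muc5ac, Tff2 and Bpifa1, which had no reads in hearts. Levels in the organs came from separate scalings of the same table.

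Of the same cytokine list, 17 genes were tested in hearts: 15 were lower and 2 higher, with a median log2 fold change of −1.36, and 11 lower genes did not overlap (11.5% of all heart genes did so in this direction). Il6 was at 1.03, 7.62 and 4.07 CPM with vehicle and 0.0372, 0.0924 and 0.0620 CPM with β-NMN (−5.92, SE 0.87). The EGF receptor ligand Ereg was at 1.74, 7.26 and 0.786 CPM against 0.149, 0.259 and 0.0465 CPM (−4.44, SE 1.02), and Il33 at 11.4, 85.4 and 16.2 CPM against 3.46, 4.03 and 2.42 CPM (−3.52, SE 0.81). Each had an edgeR adjusted p of 0.435, while DESeq2 called all 3, and Il1b, Il4ra and Il17ra of this list as well. Without vehicle replicate 2 the median of the list was −0.60, and the log2 fold changes were −5.17 for Il6, −3.09 for Ereg and −2.07 for Il33. Of the other lists, Muc1 (−1.47, SE 0.45), the stress factor Creb3l1 (−2.24, SE 0.81), Galnt6 (−1.75, SE 0.71), Stxbp2 (−1.02, SE 0.38), P2ry2 (−0.59, SE 0.23) and Clca3a1 (−0.49, SE 0.26) lay lower in β-NMN hearts without overlap. Creb3l1 was at 13.0, 76.0 and 8.70 CPM with vehicle and 4.88, 8.26 and 7.46 CPM with β-NMN, and Galnt6 had its highest value in the same vehicle heart, 6.94 CPM. Without that heart, replicate 2, their log2 fold changes were −0.66 and −0.45. Scgb1c1 (0.90, SE 0.47), Xbp1 (−0.43, SE 0.25) and St3gal1 (−0.43, SE 0.20) overlapped, and edgeR, DESeq2 and limma-voom called none of these 9 genes. In hearts, vehicle replicate 2 stood apart, with a standard deviation of log2 differences of 0.99 against 0.386 to 0.577 for the others, and its mesothelial markers summed to 114 CPM against 5.92 to 13.4 CPM. Neutrophil markers summed to 26.8, 31.9 and 46.4 CPM with vehicle and 17.1, 17.3 and 20.1 CPM with β-NMN, and so did not overlap. The summed markers of cardiomyocytes (led by Myh6, 33140 to 46140 against 48050 to 50750 CPM) were higher in every β-NMN heart. So were those of smooth muscle (led by Des, 1697 to 2751 against 2760 to 3475 CPM) and skeletal muscle (led by Ckm, 474 to 1172 against 1231 to 1771 CPM). Of their genes, Myl7 (−5.28), Nppa (−4.37), Acta2 (−0.84) and Tnnt3 (−0.62) had log2 fold changes below 0, with overlap. Myh6, Myl2, Des, Ckm and Acta1 were higher without overlap. The median log2 CPM of the genes tested overlapped for cardiomyocytes and smooth muscle. For skeletal muscle it was higher in every β-NMN heart. The part of these cell markers in the values of the cytokine list was not tested.

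In E. coli-stimulated peritoneal cells, where edgeR's quasi-likelihood test called 51.6% of 14985 genes, it called neither of the 2 genes that could be tested. Muc5b was at 0.369, 0.451 and 0.990 CPM (lowest, median and highest of 6) with vehicle and 0.159, 0.362 and 0.872 CPM with β-NMN. Its log2 fold change was −0.21 (SE 0.40, edgeR adjusted p = 0.690), and the exact two-sided permutation test gave p = 0.4. Scgb1a1 was at 0.176, 0.509 and 1.09 CPM with vehicle and 0.382, 0.938 and 1.54 CPM with β-NMN, with a log2 fold change of 0.66 (SE 0.42, adjusted p = 0.201, exact permutation p = 0.219). With limma-voom and quality weights Scgb1a1 passed (1.05, adjusted p = 0.0197). A p above the threshold does not show that the groups were alike. The other 8 genes did not pass the filter and had 0 to 39 reads per library, and their exact permutation p ranged from 0.299 to 0.989.

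Several genes of the mucus lists were called in these cells. Of the cytokines, growth factors and receptors, 20 of 22 were tested, and 15 were called lower and 2 higher, with a median log2 fold change of −1.56 (27.9% of all genes tested were called lower and 23.7% higher). Il1b (−3.17, SE 0.26), the EGF receptor ligand Areg (−3.48, SE 0.28) and Il6 (−1.57, SE 0.15) fell, and the EGF receptor ligand Hbegf rose (1.32, SE 0.13). Their edgeR adjusted p were 2.55e-07, 2.63e-07, 1.11e-06 and 1.73e-06. Of the other mucins, 4 were tested and 3 were called lower, the membrane mucins Muc1 (−1.30, SE 0.26), Muc3 (−2.76, SE 0.69) and Muc4 (−2.03, SE 0.73), at edgeR adjusted p of 0.000745, 0.00377 and 0.0296.

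Of 17 O-glycosylation enzymes tested, 4 were called higher and 6 lower (23.7% and 27.9% of all genes tested). B3gnt3, which extends core 1 O-glycans, rose (log2 fold change 1.41, SE 0.19), as did Gcnt1 (0.84, SE 0.19), and Galnt3 (−1.31, SE 0.22) and Galnt4 (−0.95, SE 0.17), which start O-glycans, fell. Of 13 genes of granule secretion, 2 were called higher (Stx3 0.35, SE 0.08, and Rab3d 0.46, SE 0.15) and 2 lower (Marcks −0.77, SE 0.15, and the nucleotide receptor P2ry2 −0.60, SE 0.14), against the same 23.7% and 27.9% of all genes. Of 6 goblet cell factors tested, Ehf (−1.37, SE 0.26) and Stat6 (−0.33, SE 0.09) were called lower and Creb3l4 (0.57, SE 0.17) higher, and Clca3a2, a relative of Clca1, fell without overlap (−3.00, SE 0.58). Neutrophil markers (10 genes, led by Csf3r) summed to 512 to 1042 CPM with vehicle and 353 to 469 CPM with β-NMN. Macrophage markers (7 genes, led by Lyz2) summed to 5465 to 8298 and 10000 to 11860 CPM, so that neither sum overlapped. The median log2 CPM of the genes tested was also apart for neutrophils (3.36 to 4.39 against 0.368 to 2.65). For macrophages it overlapped, at 7.99 to 8.33 with vehicle and 7.80 to 8.32 with β-NMN. The part of these cell markers in these changes was not tested.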

How the data were processed

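RNA of 12 CLP organ libraries and 12 TGC cell libraries was measured as read counts per gene symbol. The deposited counts were made by the authors from poly(A) RNA on a NovaSeq, aligned to mm10 with STAR (2.7.3a in the submitters' processing notes) and counted with featureCounts 2.0.0; the annotation and strand setting are not given in the sources used here. Total counts per library were 8915366 to 28356786 in lungs, 27319513 to 68523239 in hearts and 31126823 to 112456050 in cells. No other gene's exons overlapped those of the 10 genes in GENCODE M21.

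Each tissue was fitted alone in edgeR 4.0.16 (R 4.3.3) with filterByExpr defaults, TMM factors and the older quasi-likelihood F-test, with Benjamini-Hochberg adjustment over all genes tested at 0.05. CPM use TMM library sizes, and log2 CPM a prior count of 2. Single genes in hearts and cells were compared with exact permutation tests (scipy 1.17.1). The scripts were tested on simulated data. Alternatives were DESeq2 1.42.0 and its size factors, no low-count filter, newer and robust quasi-likelihood fits, limma-voom (limma 3.58.1), a replicate block, both organs together, another prior count, unscaled CPM and leaving out each library. Members and lists were chosen with earlier results of these data known. Named genes were all members, the 2 smallest p per list and tissue (up to 4 if called) and 5 genes most like Muc5b and Scgb1a1, of which 1 is not reported here; Spdef, Nkx2-1, Stat6, Il13ra1 and Il33 in lungs, Il33, Il1b, Il4ra and Il17ra in hearts, single goblet cell and gland markers and the gut genes were added after their values were seen. Replicates are separate mice by the codes in the labels.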

Additional observations from a re-analysis of the deposited data

Results flagged for a closer look

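Clca1 was lower in every β-NMN lung than in any vehicle lung and higher in every β-NMN heart than in any vehicle heart. The interaction was −9.56 on the log2 scale, and no test is read from it, because low values in β-NMN lungs were the rule by which Clca1 was chosen. Il33 had the opposite pattern, higher in β-NMN lungs and lower in β-NMN hearts, with an interaction of 4.19 (edgeR adjusted p 0.96, and 0.0278 without the low-count filter).

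In peritoneal cells, 6 of 20 groups of 6 libraries held a library far from the rest by Dixon's ratio. Its limit passes about 1 in 20 groups of normally distributed values, a rate that does not apply to these low counts, several of which were 0, so nothing is read from the number of groups. All were highest values of genes with few reads: in β-NMN replicate 4, Muc5ac at 0.872 CPM, Agr2 at 0.179 CPM, Bpifa1 at 0.223 CPM and Bpifb1 at 0.223 CPM; in β-NMN replicate 5, Tff2 at 0.153 CPM; and in vehicle replicate 1, Clca1 at 0.410 CPM. They came from 6 to 39 reads each.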

How the results depend on the processing

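In lungs, 0 genes were called by the main test and by each alternative except DESeq2 (9 genes, 1 higher and 8 lower) and limma-voom with quality weights (7 lower). The members called were Muc5b, Muc5ac and Clca1 with DESeq2 and Muc5b, Muc5ac and Tff2 with limma-voom, in the contrast they were chosen from. In hearts, 0 became 3 without the low-count filter, 283 with DESeq2 (43 higher and 240 lower) and 3 with limma-voom, and leaving out each library gave 0 to 5 (5 without vehicle replicate 2). The organ interaction went from 0 to 2 genes without the filter and 14 with DESeq2. In cells, 7733 calls became 6775 to 8863, all within 1.5 times. The causes were not tested. Of the single genes, Muc5b in cells ranged from −0.449 to 0.041 on the log2 scale when each library was left out (above 0 only without vehicle replicate 1), and Scgb1a1 in cells passed with limma-voom (1.05, adjusted p 0.0197).

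The replicate numbers did not pair the samples (correlations of −0.518 to 0.304 in lungs, 0.0735 to 0.241 in hearts and −0.169 to 0.132 in cells). The replicate block gave 0 calls in lungs, 0 in hearts and 7010 in cells, and 0 for the interaction with the mouse as block. Depth limits Muc5ac, Clca1, Tff2 and Agr2 in lungs, each with fewer than 60 reads in at least 1 library, and all members in hearts and cells.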
